A study of Mus musculus with 16 samples.

Results

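The genes described here are 10 genes of fatty acid synthesis and desaturation, out of 55536 genes in the count table of a mouse kidney cell line that loses Pkd2 when doxycycline (DOX) is given. They were taken from a fixed list of symbols (Srebf1, Acly, Acaca, Acss2, Fasn, Scd1, Scd2, Elovl6, Fads1 and Fads2) matched to their Ensembl identifiers on the GRCm38 genome build, and each symbol matched 1 identifier. All 10 passed the filter on low counts. The cells were an inner medullary collecting duct line, established from a mouse that carries an inducible Pkd2 knockout, and its alleles, the strain and age of the mouse and whether the line is a single clone are not given in the sources used here. Pkd2 encodes polycystin-2, a cation channel that is mutated in polycystic kidney disease. The 4 groups of 4 libraries were cells of passage 4 with DOX, passage 4 without DOX, passage 7 with DOX and passage 7 without DOX. All 16 cultures stood on permeable filters for 10 days in a serum-containing epithelial medium, and the cultures with DOX received 2 ug/mL of it for 6 days. The sample titles name the cells of every library as Pkd2 knockout cells, and the genotype label reads wild type where DOX was left out and knockout where it was given. DOX and the loss of Pkd2 therefore cannot be told apart. Whether replicates were separate cultures is not in the labels, so each p-value speaks only of the spread among these libraries.

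Poly(A) RNA was sequenced, and total counts ranged from 9937504 to 17188295 per library. Pkd2 was at 47.6 to 65.9 CPM (counts scaled to library size by the TMM method of edgeR) in the 8 libraries with DOX and at 135 to 187 CPM in the 8 without, so the count columns followed their DOX labels. The general epithelial genes Krt8, Krt18, Krt19, Cdh1 and Epcam were each above 457 CPM in every library. The collecting duct label was borne out only in part, since the sodium channel gene Scnn1a stood at 88.0 to 226 CPM while the water channel gene Aqp2 had 0 counts in all 16 libraries and Aqp3, Aqp4, Elf5 and Fxyd4 were too low to test. Of 5 adipocyte markers none was testable, their summed level was at most 0.499 CPM in any library, and Lep was at 0. Of the 5 epithelial markers, 2 (Krt8 and Krt18) fell with DOX at each passage. Epcam (log2 fold changes 0.01 and 0.04), Krt19 (-0.10 and 0.07) and Cdh1 (-0.08 and -0.21) were called at neither. The summed level of the 5 was 3903 to 4158 CPM with DOX against 5116 to 5276 CPM without DOX at passage 4, and 5038 to 5555 CPM against 5858 to 6421 CPM at passage 7. Leukocyte markers were low and also moved. Both testable ones of 4 (Ptprc and Cd68) fell at each passage, Adgre1 was at 0, and the summed level was 6.84 to 12.3 CPM with DOX against 16.7 to 19.6 CPM without DOX at passage 4, and 13.7 to 16.5 CPM against 26.3 to 35.7 CPM at passage 7. Of 6 testable principal cell markers of 11, Scnn1a rose at both passages (0.40 and 0.35 on the log2 scale, edgeR adjusted p = 0.018 and 0.029), Gata3 rose at passage 4 (0.55, adjusted p = 0.037) and Hsd11b2 fell at passage 7 (-1.22, adjusted p = 3.4e-05). Their summed level was 142 to 178 CPM with DOX against 108 to 148 CPM without DOX at passage 4, and 198 to 240 CPM against 172 to 195 CPM at passage 7. Most of that sum was Scnn1a, which averaged 138 and 105 CPM with and without DOX at passage 4, and 201 and 158 CPM at passage 7. The median log2 fold change of the 6 was -0.40 at passage 4 and -0.67 at passage 7. Avpr2 (-0.55 and -0.55), Scnn1b (-0.71 and -0.79) and Scnn1g (-0.96 and -0.96) had negative values that did not pass. Of 5 intercalated cell markers only Atp6v0d2 was testable (4.87 to 28.4 CPM). It was called at neither passage (-0.10 and -0.46, edgeR adjusted p = 0.83 and 0.30). The summed level of the 5 was 13.1 to 29.0 CPM with DOX against 15.6 to 24.7 CPM without DOX at passage 4. At passage 7 it was 5.43 to 7.13 CPM against 6.28 to 11.6 CPM. Of 2 testable fibroblast markers of 4, Dcn rose at both passages (1.52 and 1.15, adjusted p = 0.012 and 0.0032), and the summed level was 1.21 to 1.88 CPM with DOX against 0.732 to 1.26 CPM without DOX at passage 4, and 3.68 to 6.52 CPM against 2.49 to 3.72 CPM at passage 7. Of 2 testable proximal tubule markers of 4, Cubn fell at passage 4 (-1.06, adjusted p = 0.024), and the summed level was 9.28 to 11.4 CPM with DOX against 11.9 to 12.6 CPM without DOX at passage 4, and 10.4 to 11.9 CPM against 11.9 to 12.7 CPM at passage 7. The part of these marker changes in the results below was not tested. In bulk RNA, fewer cells of a type and less RNA per cell cannot be told apart.

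Fatty acid synthesis begins in the cytosol with acetyl-CoA, which ATP citrate lyase (Acly) cuts from citrate exported by mitochondria and which the acetyl-CoA synthetase ACSS2 makes from acetate. Acetyl-CoA carboxylase (Acaca) turns it into malonyl-CoA, and fatty acid synthase (Fasn) builds palmitate from these units. ELOVL6 lengthens palmitate, the stearoyl-CoA desaturases SCD1 and SCD2 place the first double bond in saturated chains, and the desaturases FADS2 and FADS1 act in turn on dietary polyunsaturated fatty acids. Srebf1 encodes the transcription factor SREBP1, which is released from the endoplasmic reticulum by proteolysis and is known to activate many of these genes, above all in liver and fat. The related factor SREBP2 is best known for the genes of cholesterol synthesis.

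With DOX, 6 of the 10 genes fell and 1 rose at passage 4, and the same counts, 6 lower and 1 higher, were found at passage 7. Among all 15316 tested genes, 9.1% were called lower and 8.45% higher at passage 4, and 11.6% were called lower and 11.1% higher at passage 7 (edgeR's quasi-likelihood test, Benjamini-Hochberg adjusted p under 0.05). The 6 genes that fell were the same at both passages: Acly, Fasn, Scd1, Elovl6, Fads1 and Fads2. Each of the 6 was also called lower in replicates 1 and 2 alone and in replicates 3 and 4 alone, at both passages. Both subsets are parts of the libraries that picked the 6, so they are no independent test. Acss2 was the gene that rose. Srebf1 itself, Acaca and Scd2 passed the test at neither passage. With replicate number as a block, 8 genes fell and 1 rose at passage 4, where 14% of tested genes were called lower and 13.3% higher, and 7 fell and 1 rose at passage 7, where 16.5% were lower and 15.3% higher. The median log2 fold change of the 10 genes was -0.32 at passage 4 and -0.26 at passage 7, against 0.00 and -0.01 for all tested genes. By the plain order of the libraries, the 4 libraries with DOX were each lower than the 4 without for 7 of the 10 genes at passage 4, where 11% of tested genes did so, and for 6 at passage 7, where 12.8% did. All 4 lay above for 1 gene at passage 4 and for 0 at passage 7, against 10.3% and 12.4% of tested genes.

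**Figure D1:**
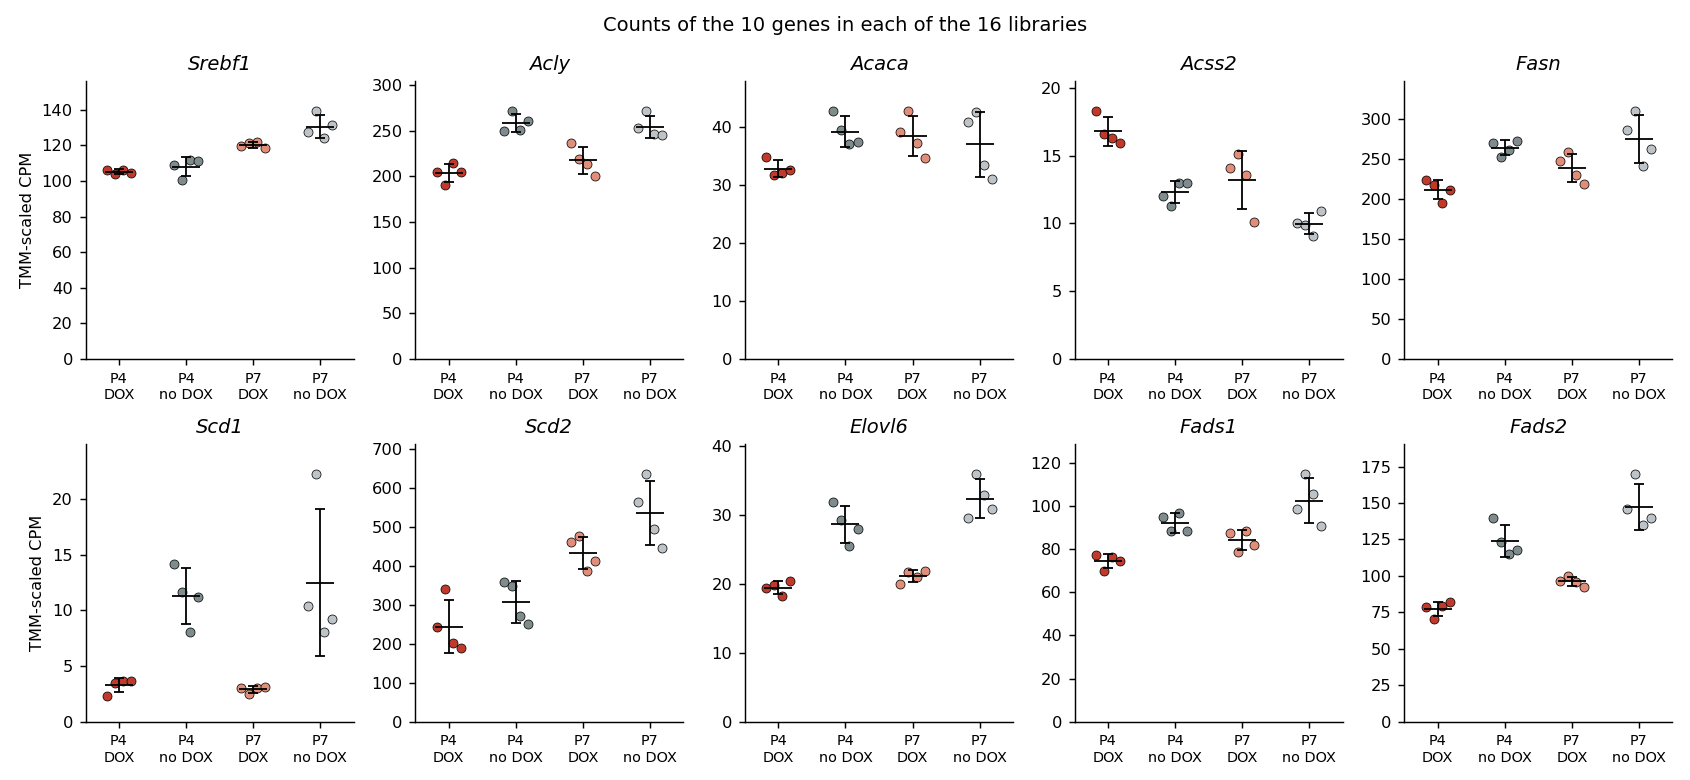
TMM-scaled CPM of each of the 10 genes (vertical axes, linear and from 0) in the 16 libraries, with DOX groups left of their groups without DOX at passage 4 (P4) and passage 7 (P7); points are libraries, the long bar is the mean and the whiskers are the SD of 4. Scd1 with DOX lies at 2.33 to 3.70 CPM, below every library without DOX (8.03 to 22.3 CPM), while the Scd2 groups with and without DOX overlap at each passage and its passage 7 groups lie higher than its passage 4 groups.

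The gene of the transcription factor passed the test at neither passage. Srebf1 (chromosome 11, 60199089 to 60222581, minus strand) had 106, 104, 106 and 105 CPM in replicates 1 to 4 with DOX at passage 4, against 109, 100.4, 111 and 111 CPM without DOX. At passage 7 it had 119, 121, 122 and 119 CPM with DOX, against 128, 139, 124 and 131 CPM without DOX. The groups overlapped at passage 4, and at passage 7 every library with DOX lay below every library without. The log2 fold changes were -0.04 (SE 0.05, edgeR adjusted p = 0.66) at passage 4 and -0.12 (SE 0.05, adjusted p = 0.096) at passage 7, and neither passed the test. The counts cover the whole locus, so the SREBP1a and SREBP1c transcripts, which start at different first exons, were not told apart.

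Of the genes that supply the carbon units, Acly fell and Acss2 rose. Acly (chromosome 11, 100476353 to 100528000, minus strand) had 205, 191, 215 and 204 CPM with DOX at passage 4, against 249.9, 271, 251 and 261 CPM without DOX. At passage 7 the 4 libraries with DOX had 236, 219, 214 and 201 CPM, against 253, 272, 247 and 246 CPM without DOX. The groups did not overlap at either passage, although the highest library with DOX at passage 7 (236 CPM) lay near the lowest without (246 CPM). The log2 fold change was -0.34 (SE 0.06, edgeR adjusted p = 0.00023) at passage 4, which left 78.9% of the level without DOX, and -0.23 (SE 0.06, adjusted p = 0.0061) at passage 7, which left 85.5%.

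Acss2 (chromosome 2, 155517948 to 155585724, plus strand), which makes acetyl-CoA from acetate, was the exception in direction. It had 18.3, 16.6, 16.3 and 15.9 CPM with DOX at passage 4, against 12.02, 11.3, 12.98 and 12.97 CPM without DOX. Its passage 7 values were 14.1, 15.1, 13.5 and 10.1 CPM with DOX, against 10.1, 9.88, 9.07 and 10.9 CPM without DOX. The groups stood apart at passage 4, and at passage 7 replicate 4 with DOX fell inside the range of the cultures without DOX. The log2 fold change was 0.45 (SE 0.11, edgeR adjusted p = 0.0078) at passage 4 and 0.40 (SE 0.11, adjusted p = 0.016) at passage 7, or 136% and 132% of the level without DOX. In replicates 3 and 4 alone the changes were 0.31 (adjusted p = 0.097) and 0.25 (adjusted p = 0.22) and no longer passed, and without replicate 2 of passage 7 with DOX the passage 7 value of 0.33 did not pass (adjusted p = 0.058). Acss2 shares exon bases with 3 genes on the opposite strand, 197 (1.94% of its exon bases) with the gamma-glutamyltransferase gene Ggt7, 335 (3.30%) with the transcript Acss2os and 395 (3.89%) with the glutathione synthetase gene Gss. With DOX, Ggt7 fell at passage 4 and passage 7 (log2 fold changes -3.06 and -2.63), Gss rose (0.33 and 0.44, adjusted p = 0.0024 and 0.00018), and Acss2os passed at neither passage. The library kit marks strand, but no source used here gives the strand setting of the counting, so reads of Acss2 and of these partners may not be told apart in those stretches.

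The enzymes that build the chain differed in size of response. Acaca (chromosome 11, 84129672 to 84401651, plus strand), which makes malonyl-CoA, had 34.9, 31.7, 32.1 and 32.7 CPM with DOX at passage 4, against 42.8, 39.5, 37.0 and 37.4 CPM without DOX, and the groups did not overlap. The passage 7 libraries had 39.2, 42.7, 37.2 and 34.7 CPM with DOX, against 41.0, 42.5, 33.5 and 31.1 CPM without DOX, and the groups lay across each other. The log2 fold changes were -0.25 (SE 0.09, edgeR adjusted p = 0.068) and 0.05 (SE 0.09, adjusted p = 0.76). With replicate number as a block the passage 4 value passed (-0.26, adjusted p = 0.0087). Of the 75-base words of Acaca transcripts, 26.8% also occur in other genes, nearly all in the gene annotated as Gm5182, which itself had at most 1.03 CPM in any library and was not called. Reads from those words could have been split or dropped in the authors' counting, so the level of Acaca is uncertain to that extent.

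Fasn (chromosome 11, 120805846 to 120824547, minus strand) had 224, 217, 195 and 211 CPM with DOX at passage 4, against 270.3, 253, 261 and 273 CPM without DOX. At passage 7 it had 247, 259, 230.5 and 219 CPM with DOX, against 286, 311, 241 and 262 CPM without DOX. The groups stood apart at passage 4 and overlapped at passage 7, where replicate 3 without DOX was low. Fasn fell by 0.32 on the log2 scale at passage 4 (SE 0.07, edgeR adjusted p = 0.0036) and by 0.20 at passage 7 (SE 0.07, adjusted p = 0.045). The passage 7 call was lost in 12 of 16 fits that left out 1 library each (over the 16 fits -0.26 to -0.14, adjusted p 0.011 to 0.18) and without the filter on low counts (adjusted p = 0.060). With replicate number as a block it held at an adjusted p of 0.0060.

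Upstream sequences are shown for Fasn, Acly and Elovl6, which fell, and for Acss2, which rose, to set letters of boxes known from lipid genes side by side. RefSeq promoter windows of GRCm38.p6, from 250 bases before to 50 bases after a transcript start, were at hand for 7 of the 10 genes in 9 windows. Scd1, Scd2 and Fads1 were not matched. Each stretch is written 5′ to 3′ on the strand of its gene and ends at the last base before the annotated gene start. The capitals mark CCAAT (the NF-Y box) and GGGCGG (the Sp1 box) on either strand, and in Fasn the last pair of CCAAT matches overlap each other on opposite strands. Fasn lies on the minus strand at chr11:120824548-120824797, Acly on the minus strand at chr11:100528001-100528250, Acss2 on the plus strand at chr2:155517793-155517947, and Elovl6, described further on, on the plus strand at chr3:129532136-129532354.
Fasn: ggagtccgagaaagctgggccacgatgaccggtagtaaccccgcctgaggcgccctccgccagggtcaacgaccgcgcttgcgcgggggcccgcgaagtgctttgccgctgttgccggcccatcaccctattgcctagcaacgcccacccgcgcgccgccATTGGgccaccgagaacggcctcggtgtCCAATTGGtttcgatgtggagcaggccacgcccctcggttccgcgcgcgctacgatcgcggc
Acly: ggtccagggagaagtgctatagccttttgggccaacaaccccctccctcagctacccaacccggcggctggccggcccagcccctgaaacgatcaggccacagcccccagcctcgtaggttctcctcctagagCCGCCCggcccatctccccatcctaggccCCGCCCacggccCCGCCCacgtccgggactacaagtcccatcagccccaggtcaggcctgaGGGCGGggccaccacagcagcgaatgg
Acss2: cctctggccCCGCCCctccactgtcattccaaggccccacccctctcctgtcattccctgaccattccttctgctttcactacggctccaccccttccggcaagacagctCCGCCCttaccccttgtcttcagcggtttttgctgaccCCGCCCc
Elovl6: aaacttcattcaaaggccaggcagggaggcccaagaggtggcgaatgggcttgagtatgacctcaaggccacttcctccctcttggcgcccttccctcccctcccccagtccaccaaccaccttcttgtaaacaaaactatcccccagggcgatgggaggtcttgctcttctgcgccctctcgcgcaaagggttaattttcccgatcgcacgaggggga
CCAAT was found in 5 of the 9 windows, of 4 genes (Acly, Acss2, Fasn and Srebf1), and in 37.4% of all 32851 windows of that length, and the matches of Acly and Acss2 lie in the part of the window that is not printed. GGGCGG was found in 5 of the 9, of 4 genes (Acly, Acss2, Fads2 and Srebf1), and in 35.7% of all windows. The sterol regulatory element TCACNCCAC and the E-box CACGTG, searched on both strands in the same windows, were found in 0 of the 9, against 1.24% and 7.15% of all windows. Acss2, which rose, and Acly, which fell, both hold several GGGCGG matches, while the Elovl6 stretch holds none of the 4 motifs. The matches are letters in these windows and describe no binding. Only these exact letters were searched, so a 0 does not show that a gene lacks such an element.

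Scd1 showed the largest change of the 10 genes at both passages. It encodes the stearoyl-CoA desaturase best known from liver and fat, and lies on chromosome 19 (44394455 to 44407879, minus strand). It had 2.33, 3.47, 3.70 and 3.62 CPM with DOX at passage 4, from 30 to 59 counts per library, against 14.2, 11.7, 8.06 and 11.2 CPM without DOX, from 121 to 171 counts. Its passage 7 values were 2.99, 2.47, 3.06 and 3.11 CPM with DOX, against 10.4, 22.3, 8.03 and 9.23 CPM without DOX. No library with DOX reached the lowest without DOX, and replicate 2 of passage 7 without DOX stood far above its group. Scd1 fell by 1.77 on the log2 scale at passage 4 (SE 0.29, edgeR adjusted p = 0.00039), which left 29.2%, and fell by 2.10 at passage 7 (SE 0.29, adjusted p = 6.3e-05), which left 23.3%. Without that high library the passage 7 change was -1.66. Of its 75-base words, 3.15% also occur in other genes, among them Scd2, Scd3 and Scd4, of which Scd3 and Scd4 were too low to test.

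Scd2 lies 87590 bases from Scd1 and encodes the desaturase found in many tissues (chromosome 19, 44293674 to 44306864, plus strand). It had 243, 341, 203 and 191 CPM with DOX at passage 4, against 360.1, 348, 271 and 251 CPM without DOX. The passage 7 libraries had 461, 476, 387 and 414 CPM with DOX, against 565, 638, 496 and 447 CPM without DOX. The groups overlapped at both passages, and replicates 1 and 2 lay above replicates 3 and 4 in every group. The log2 fold changes of -0.33 (SE 0.18, edgeR adjusted p = 0.23) and -0.30 (SE 0.17, adjusted p = 0.25) did not pass. With replicate number as a block they did, at -0.35 (adjusted p = 0.0037) and -0.29 (adjusted p = 0.0087), and without replicate 2 of passage 4 with DOX the passage 4 value was -0.54 (adjusted p = 0.020). In replicates 3 and 4 alone it was called lower at both passages (-0.41, adjusted p = 1.0e-06, and -0.24, adjusted p = 0.0011), and in replicates 1 and 2 alone at neither (-0.27 and -0.36, adjusted p = 0.31 and 0.19).

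The balance of the neighbouring desaturase genes moved with DOX. Per kilobase of exon, Scd2 was 91.9, 87.3, 48.6 and 46.6 times as abundant as Scd1 with DOX at passage 4, against 22.7, 26.6, 30.0 and 20.1 times without DOX. Its passage 7 ratios were 136, 170.4, 112 and 118 with DOX, against 48.4, 25.6, 55.0 and 43.1 without DOX. The groups did not overlap at either passage. The log2 ratio of Scd1 to Scd2 averaged -6.03 ± 0.53 with DOX and -4.62 ± 0.26 without DOX at passage 4 (SD, n = 4 each), a difference of -1.41. At passage 7 it averaged -7.05 ± 0.27 with DOX and -5.37 ± 0.49 without DOX, a difference of -1.68. The 2-sided exact permutation test gave p = 0.0286 for both passages, the lower limit of its 70 arrangements, and with replicate number as a block the sign-flip test gave 0.125, the smallest that 4 pairs allow.

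**Figure D2:**
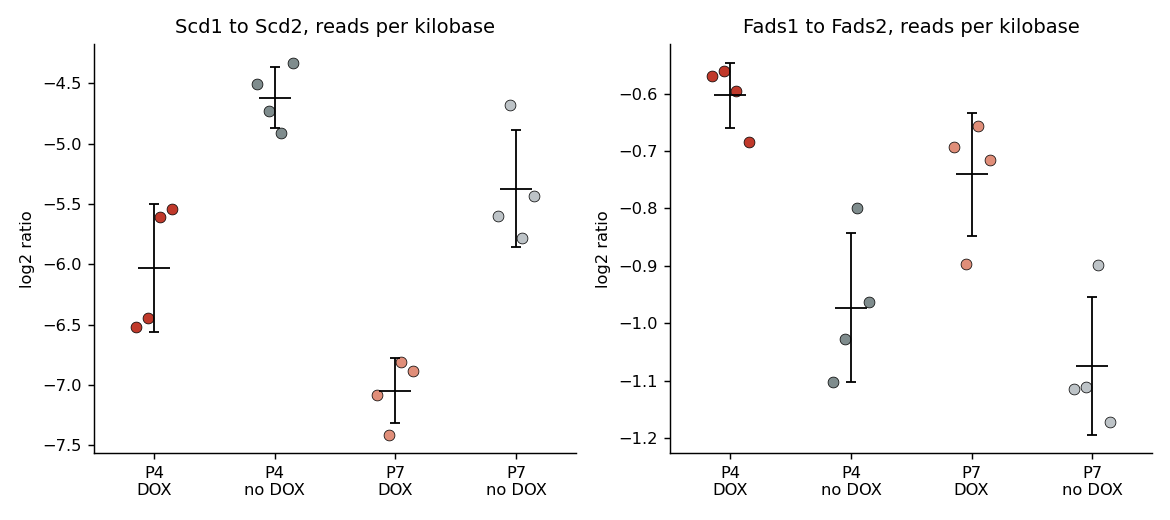
Log2 ratio of Scd1 to Scd2 (left) and of Fads1 to Fads2 (right), each from counts per kilobase of exon, in the 16 libraries, with DOX groups left of their groups without DOX; points are libraries, the long bar is the mean and the whiskers are the SD of 4. Scd1 to Scd2 lies lower with DOX at each passage (means -6.03 against -4.62 and -7.05 against -5.37), and Fads1 to Fads2 lies higher with DOX (means -0.60 against -0.97 and -0.74 against -1.07).

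Elovl6 (chromosome 3, 129532355 to 129638495, plus strand), which lengthens the palmitate that fatty acid synthase releases, fell at both passages. It had 19.4, 19.8, 18.2 and 20.5 CPM with DOX at passage 4, against 31.9, 29.3, 25.5 and 27.98 CPM without DOX. At passage 7 it had 20.0, 21.8, 21.0 and 21.9 CPM with DOX, against 29.6, 36.1, 33.0 and 30.9 CPM without DOX. Every library with DOX, of either passage, lay below every library without. The log2 fold change was -0.55 (SE 0.08, edgeR adjusted p = 9.1e-05) at passage 4 and -0.61 (SE 0.08, adjusted p = 2.2e-05) at passage 7, which left 68.1% and 65.4% of the level without DOX.

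The polyunsaturated fatty acid desaturases, 81141 bases apart on chromosome 19, both fell, Fads2 by more than Fads1. Fads2 (10062765 to 10101746, minus strand), which introduces the first of the added double bonds, had 78.5, 70.7, 79.2 and 81.9 CPM with DOX at passage 4, against 139.9, 123, 115 and 118 CPM without DOX. Its passage 7 values were 96.8, 100.1, 95.5 and 92.4 CPM with DOX, against 146, 170.2, 135 and 139.7 CPM without DOX. The highest library with DOX (100.1 CPM) lay below the lowest without DOX (115 CPM) across both passages. Fads2 fell by 0.68 on the log2 scale at passage 4 (SE 0.08, edgeR adjusted p = 3.4e-06), which left 62.5%, and by 0.62 at passage 7 (SE 0.07, adjusted p = 7.4e-06), which left 65.2%.

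Fads1 (10182888 to 10196877, plus strand), which acts after FADS2 and elongation, had 77.2, 70.02, 76.5 and 74.4 CPM with DOX at passage 4, against 95.1, 88.4, 96.7 and 88.2 CPM without DOX. The passage 7 libraries had 87.5, 78.5, 88.5 and 82.1 CPM with DOX, against 98.4, 115, 105 and 90.6 CPM without DOX. The groups stood apart within each passage but not across passages. Fads1 fell by 0.31 on the log2 scale at passage 4 (SE 0.07, edgeR adjusted p = 0.0035) and by 0.28 at passage 7 (SE 0.07, adjusted p = 0.0049). The log2 ratio of Fads1 to Fads2 per kilobase averaged -0.60 ± 0.06 with DOX and -0.97 ± 0.13 without DOX at passage 4 (SD, n = 4 each), and -0.74 ± 0.11 with DOX and -1.07 ± 0.12 without DOX at passage 7. Both differences, 0.37 and 0.33, had a 2-sided exact permutation p of 0.0286, again the lower limit, with no overlap at passage 4 or passage 7. The sign-flip test with replicate number as a block gave 0.125 for each. The passage 4 difference was 0.50 in replicates 1 and 2 alone and 0.24 in replicates 3 and 4 alone.

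The response to DOX was compared between the passages by the difference of the log2 fold changes, passage 7 minus passage 4. By edgeR's test, 0 of the 10 genes passed, where 1.19% of all tested genes did, and DESeq2 likewise called 0. At an unadjusted p under 0.05, edgeR and DESeq2 each gave 1 gene, Acaca, whose difference was 0.30 (SE 0.13, adjusted p = 0.37). What share of all tested genes reached that unadjusted threshold is not given here. The difference for Scd1 was -0.33 with an SE of 0.42 (adjusted p = 0.85), so a change of its response between passages was not detectable at this depth and spread. For Elovl6 and Fads2, measured more tightly, the differences were -0.06 (SE 0.12) and 0.06 (SE 0.11).

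**Figure D3:**
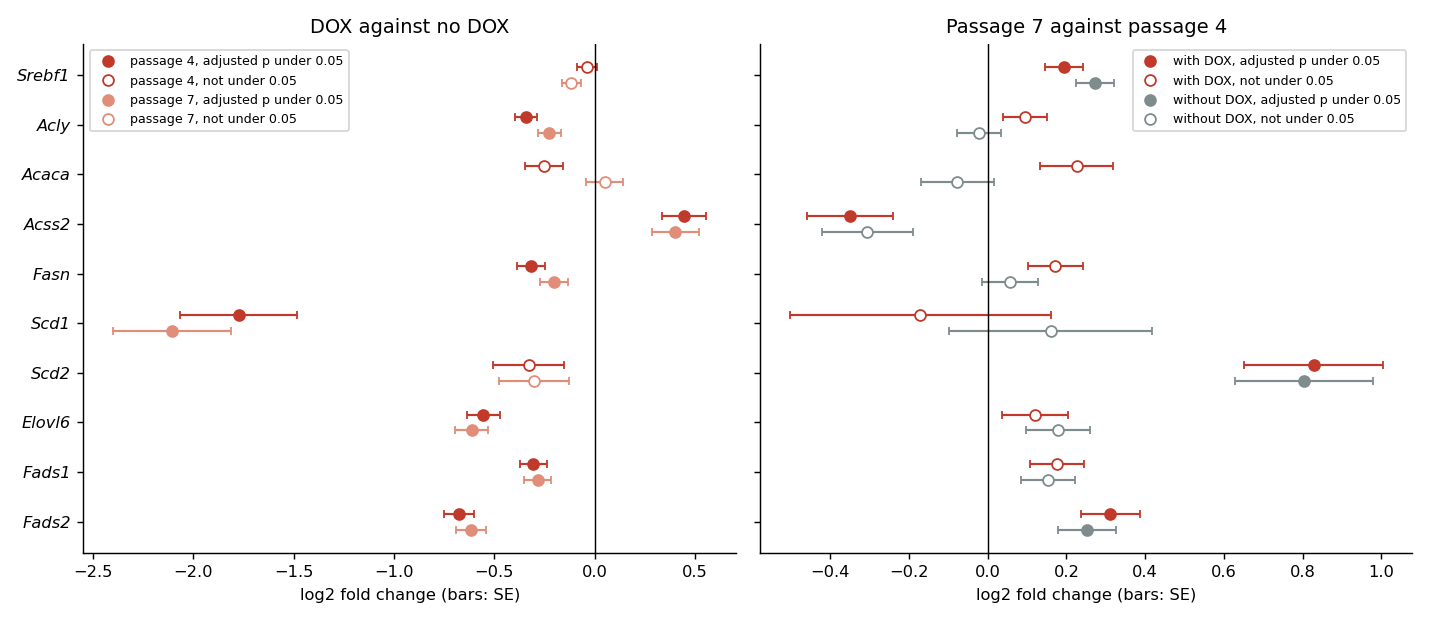
Log2 fold change (horizontal axes; whiskers are the SE) of the 10 genes for DOX against no DOX at each passage (left) and for passage 7 against passage 4 in each DOX state (right), from edgeR's fit of all 16 libraries; filled points had an adjusted p under 0.05. Scd1 lies farthest to the left with DOX (-1.77 and -2.10), Acss2 is the filled point to the right of 0, and Scd2 is the highest of the passage changes (0.83 and 0.80).

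Between passages the picture differed, and these comparisons share their libraries with the DOX comparisons. With DOX, 3 of the 10 genes were higher at passage 7 than at passage 4 and 1 was lower, where 18.3% of tested genes were called higher and 15.8% lower. Without DOX, 3 were higher, where 14.3% of tested genes were, and 0 were lower, where 11.3% were. At an unadjusted p under 0.05, edgeR and DESeq2 each gave 5 genes higher without DOX (Srebf1, Scd2, Elovl6, Fads1 and Fads2) and 1 lower (Acss2). With DOX each gave 6 higher and 1 lower. The share of all tested genes at the unadjusted threshold is not given here. After adjustment, DESeq2 also had 0 lower without DOX. Srebf1, Scd2 and Fads2 were the 3 genes called higher in both DOX states after adjustment. With replicate number as a block 6 were higher and 1 lower with DOX, where 23.2% and 21.6% of tested genes were called, and 4 were higher and 1 lower without DOX, where 19.6% and 17.4% were.

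Scd2 changed most between passages. It averaged 434 ± 41.4 CPM at passage 7 and 244 ± 68.1 CPM at passage 4 with DOX (SD, n = 4 each), and 536 ± 83.4 CPM at passage 7 and 308 ± 54.3 CPM at passage 4 without DOX. The groups did not overlap, and the log2 fold changes were 0.83 (SE 0.18, edgeR adjusted p = 0.0023) with DOX and 0.80 (SE 0.18, adjusted p = 0.0041) without DOX. Srebf1 averaged 120.3 ± 1.55 CPM at passage 7 and 105 ± 1.32 CPM at passage 4 with DOX, and 130.5 ± 6.61 CPM at passage 7 and 108 ± 5.25 CPM at passage 4 without DOX. These groups also stood apart, with log2 fold changes of 0.19 (SE 0.05, adjusted p = 0.0050) and 0.27 (SE 0.05, adjusted p = 0.00049). Fads2 rose by 0.31 with DOX (SE 0.08, adjusted p = 0.0036), where its groups stood apart, and by 0.25 without DOX (SE 0.07, adjusted p = 0.018), where they overlapped. Without replicate 2 of passage 7 without DOX that value was 0.18 (adjusted p = 0.079), and it was also lost without replicate 3 or without replicate 4 of passage 4 without DOX (adjusted p = 0.058 and 0.054).

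Acss2 averaged 13.2 ± 2.17 CPM at passage 7 and 16.8 ± 1.05 CPM at passage 4 with DOX, and fell by 0.35 on the log2 scale (SE 0.11, edgeR adjusted p = 0.019). Without DOX it averaged 9.99 ± 0.76 CPM at passage 7 and 12.3 ± 0.81 CPM at passage 4, a log2 change of -0.31 (SE 0.12, adjusted p = 0.059) that passed with the block (adjusted p = 0.038). The call with DOX was lost without replicate 1 of passage 4 with DOX and without replicate 4 of passage 7 with DOX, where it was -0.24 (adjusted p = 0.070). Acaca, Fasn and Fads1 had values of 0.23, 0.17 and 0.18 with DOX (adjusted p = 0.068, 0.068 and 0.054) near the threshold, which passed with the block (adjusted p = 0.011, 0.012 and 0.019) and in some fits that left out 1 library. Fads1 without DOX had 0.15 (adjusted p = 0.11, and 0.043 with the block). Acly, Elovl6 and Scd1 passed in neither DOX state, with or without the block.

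Per kilobase of exon (FPKM, the same scaled CPM divided by exon length), the levels of the 10 genes spanned a wide range and kept much the same order in the 4 groups. Scd2 was highest, at 44.7 ± 12.5 FPKM with DOX and 56.3 ± 9.95 FPKM without DOX at passage 4, and at 79.5 ± 7.57 FPKM with DOX and 98.2 ± 15.3 FPKM without DOX at passage 7 (SD, n = 4 each). Acly followed at group means of 38.6 to 48.9 FPKM, and its libraries overlapped those of Scd2 at passage 4 but not at passage 7. Fads2 came after it at 23.5 to 44.8 FPKM and overlapped Acly only at passage 7 without DOX. Fasn (19.4 to 25.1 FPKM), Srebf1 (18.7 to 23.2 FPKM) and Fads1 (15.5 to 21.3 FPKM) came next. Fasn and Srebf1 overlapped in every group except passage 4 without DOX, and Srebf1 and Fads1 overlapped only in the groups without DOX. Elovl6 was lower, at 3.03 to 5.04 FPKM.

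The last places were taken by Acaca, Acss2 and Scd1, and they changed order with DOX. With DOX, Scd1 was lowest at both passages, at 0.67 ± 0.13 FPKM at passage 4 and 0.59 ± 0.06 FPKM at passage 7, below Acss2 (1.65 ± 0.10 and 1.30 ± 0.21 FPKM) with no overlap. Without DOX, Acss2 was lowest, at 1.21 ± 0.08 FPKM at passage 4 and 0.98 ± 0.08 FPKM at passage 7, and Scd1 (2.30 ± 0.51 and 2.55 ± 1.35 FPKM) overlapped Acaca (2.29 ± 0.15 and 2.17 ± 0.33 FPKM). The length used was the exon union of all annotated transcripts, 10163 bases for Acss2 and 4892 for Scd1, and the order depends on it. Before division by length, Acss2 averaged 12.3 CPM and Scd1 11.3 CPM at passage 4 without DOX.

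Replicates 3 and 4 differed from replicates 1 and 2 in all groups, and 3 of the 10 genes were called for it. With group held constant, Scd2 (log2 difference -0.39, edgeR adjusted p = 0.00022), Acaca (-0.18, adjusted p = 0.0034) and Fasn (-0.13, adjusted p = 0.0091) were lower in replicates 3 and 4, and the other 7 were not called. Of all 15316 tested genes the same contrast called 2673 higher and 2984 lower, so such calls were common and not particular to these genes. What separated the pairs is not in the labels.

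The genes whose levels ran most alike over the 16 libraries were taken from 10696 tested genes with a mean of at least 5 CPM. The measure was Pearson's r of log2(CPM + 0.5), and the libraries share the DOX and passage groups, so r describes the groups as much as the genes. Elovl6 ran most like Pkd2 (r = 0.957) and the ubiquitin ligase adaptor gene Klhl2 (0.949). Fads2 had Smpdl3b (0.963) among its closest. Acly ran most like the acetyl-CoA acetyltransferase gene Acat2 (0.949) and Dnajb2 (0.944), and Fads1 like the mevalonate kinase gene Mvk (0.921) and Fam216a (0.921). Scd1 ran most like Ankrd1 (0.940) and Tmem51 (0.938), and Fasn like Myh9 (0.907) and Tec (0.898). Scd2 ran most like Sun1 (0.970) and Mcam (0.963), and Srebf1 like Limk1 (0.947) and Rfc3 (0.943). The weakest matches were those of Acaca with Cep192 (0.889) and Kctd3 (0.885) and of Acss2 with Abhd4 (0.895) and Myo1e (0.895).

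Among themselves, Elovl6 and Fads2 ran closest (r = 0.954), followed by Scd1 and Elovl6 (0.923) and Fads1 and Fads2 (0.914). Acss2 had a negative r with each of the other 9 genes, from -0.26 with Acaca to -0.83 with Fads2. The genes Srebf1 and Scd2 ran most like each other (0.799), and Srebf1 had an r of only 0.305 with Scd1 and 0.348 with Acly.

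Genes around the pathway were read from 7 lists, and each count stands beside the shares of all genes given above. Of 17 tested regulators of SREBP1 and lipogenesis, 3 were lower and 14 not called with DOX at passage 4 (median log2 fold change -0.04), and 3 were lower, 1 higher and 13 not called at passage 7 (median -0.03). Those that fell at both passages were Srebf2, the gene of SREBP2 (-0.51 and -0.44, edgeR adjusted p = 1.4e-05 and 4.9e-05), and Insig1, which encodes a protein that holds SREBPs in the endoplasmic reticulum (-0.97 and -0.90, adjusted p = 5.0e-06 and 5.2e-06). Srebf2 averaged 202 ± 11.1 CPM with DOX and 288 ± 12.9 CPM without DOX at passage 4, and 272 ± 17.2 CPM with DOX and 369.5 ± 30.9 CPM without DOX at passage 7. The upstream factor gene Usf2 rose at passage 7 (0.22, adjusted p = 0.016), and Prkaa1, a catalytic subunit gene of the AMP-activated kinase, fell there (-0.29, adjusted p = 0.024).

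Of 11 tested genes of citrate, acyl-CoA and NADPH supply, 4 were lower, 1 higher and 6 not called with DOX at passage 4, and 3 were lower and 8 not called at passage 7, with medians of -0.02 and -0.14. The NADPH-forming enzymes malic enzyme Me1 (-0.39 and -0.36, edgeR adjusted p = 5.0e-05 and 8.7e-05), Pgd (-0.32 and -0.31) and G6pdx (-0.27 and -0.21) fell at both passages. The mitochondrial citrate carrier Slc25a1 fell at passage 4 (-0.24, adjusted p = 0.0058) and had -0.05 at passage 7 (adjusted p = 0.61).

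Of 13 tested genes of the other elongation and desaturation steps, 2 were lower and 1 higher at passage 4, and 4 were lower and 1 higher at passage 7 (medians -0.07 and -0.05). Cytochrome b5 (Cyb5a, -0.29 and -0.29) and its reductase (Cyb5r3, -0.16 and -0.37), which pass electrons to the desaturases, fell at both passages. Fads3, a further gene of the Fads cluster, rose at passage 7 (0.53, edgeR adjusted p = 0.0011) and had 0.20 at passage 4 (adjusted p = 0.23, and 0.023 with the block), so it moved against Fads1 and Fads2. Fads6 fell at passage 7 (-0.39, adjusted p = 0.013). The elongase genes Elovl2, Elovl3 and Elovl4 were too low to test.

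Fatty acid activation, uptake and binding genes split, with 5 lower and 2 higher of 11 tested at each passage (medians -0.28 and -0.25). The acyl-CoA synthetases Acsl1 (-0.35 and -0.64) and Acsl4 (-0.52 and -0.75), the transporter Slc27a2 (-1.79 and -2.75) and the fatty acid binding protein Fabp5 (-0.93 and -0.62) fell at both passages. Slc27a2 averaged only 0.59 ± 0.38 CPM with DOX and 2.19 ± 0.88 CPM without DOX at passage 4. Of 15 tested genes of glycerolipid synthesis and lipid droplets, 2 were higher and 3 lower at each passage (medians 0.01 and 0.02). The triglyceride synthesis enzyme Dgat2 rose (0.75 and 0.61, edgeR adjusted p = 0.0022 and 0.0029), and the lipid droplet coat gene Plin2 fell (-0.44 and -0.19, adjusted p = 7.0e-06 and 0.010). Lpin1, a phosphatidate phosphatase gene, fell at passage 4 (-0.44) and had -0.30 at passage 7 (adjusted p = 0.057, and 0.0071 with the block).

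Fatty acid oxidation genes showed a median near 0. Of 16 tested, 4 were higher and 2 lower at passage 4, and 1 was higher and 2 lower at passage 7 (medians -0.02 and -0.03). Cpt1a, which commits fatty acids to mitochondrial oxidation, rose at both passages (0.62 and 0.27, edgeR adjusted p = 2.6e-05 and 0.026), and the very long chain dehydrogenase Acadvl fell at both (-0.20 and -0.20). The carnitine carrier gene Slc25a20 rose at passage 4 (0.27, adjusted p = 0.0049) and had 0.18 at passage 7 (adjusted p = 0.056, and 0.046 with the block). Of 22 cholesterol synthesis and uptake genes, 19 were lower and 3 not called with DOX at passage 4, and 16 were lower and 6 not called at passage 7 (medians -0.56 and -0.43). Among the examples with the smallest adjusted p were Sqle, which encodes squalene epoxidase, and Lss, which encodes lanosterol synthase (both -0.71 at passage 4, with -0.24 and -0.30 at passage 7). The median of the cholesterol list lay below that of the 10 fatty acid genes at both passages, and the difference between the lists was not tested. In the fit with the replicate block, 5 of the SREBP1 regulators were lower and 2 oxidation genes higher at passage 7, and 4 elongation and desaturation genes were lower and 3 higher at passage 4. Calls near the threshold depended on the replicate pair, the filter or single libraries. In replicates 1 and 2 alone, G6pdx (-0.14 at each passage, adjusted p = 0.10 and 0.13) and Acadvl (-0.13 and -0.16, adjusted p = 0.19 and 0.11) did not pass at either passage. At passage 4, Acsl1 (-0.19, adjusted p = 0.085), Lpin1 (-0.29, adjusted p = 0.062) and Cyb5r3 (-0.15, adjusted p = 0.062) did not pass there, nor at passage 7 did Usf2 (0.24, adjusted p = 0.060) and Fads6 (-0.38, adjusted p = 0.14). In replicates 3 and 4 alone, Slc25a1 at passage 4 (-0.16, adjusted p = 0.073), Slc25a20 at passage 4 (0.19, adjusted p = 0.14) and Lss at passage 7 (-0.15, adjusted p = 0.14) did not pass. Cyb5r3 and Acsl4 at passage 4 did not pass without the filter on low counts (adjusted p = 0.093 and 0.063), nor did G6pdx, Plin2 and Acadvl at passage 7 (adjusted p = 0.057, 0.053 and 0.071). Leaving out 1 library of the groups compared ended the call of Cyb5r3 (5 of 8 libraries, adjusted p up to 0.098) and Acsl4 (3 of 8, up to 0.054) at passage 4, and of Usf2 (2 of 8, up to 0.061), Prkaa1 (4 of 8, up to 0.084), G6pdx (4 of 8, up to 0.086), Cpt1a (4 of 8, up to 0.069) and Fads6 (1 of 8, replicate 2 without DOX, 0.055) at passage 7.

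**Figure D4:**
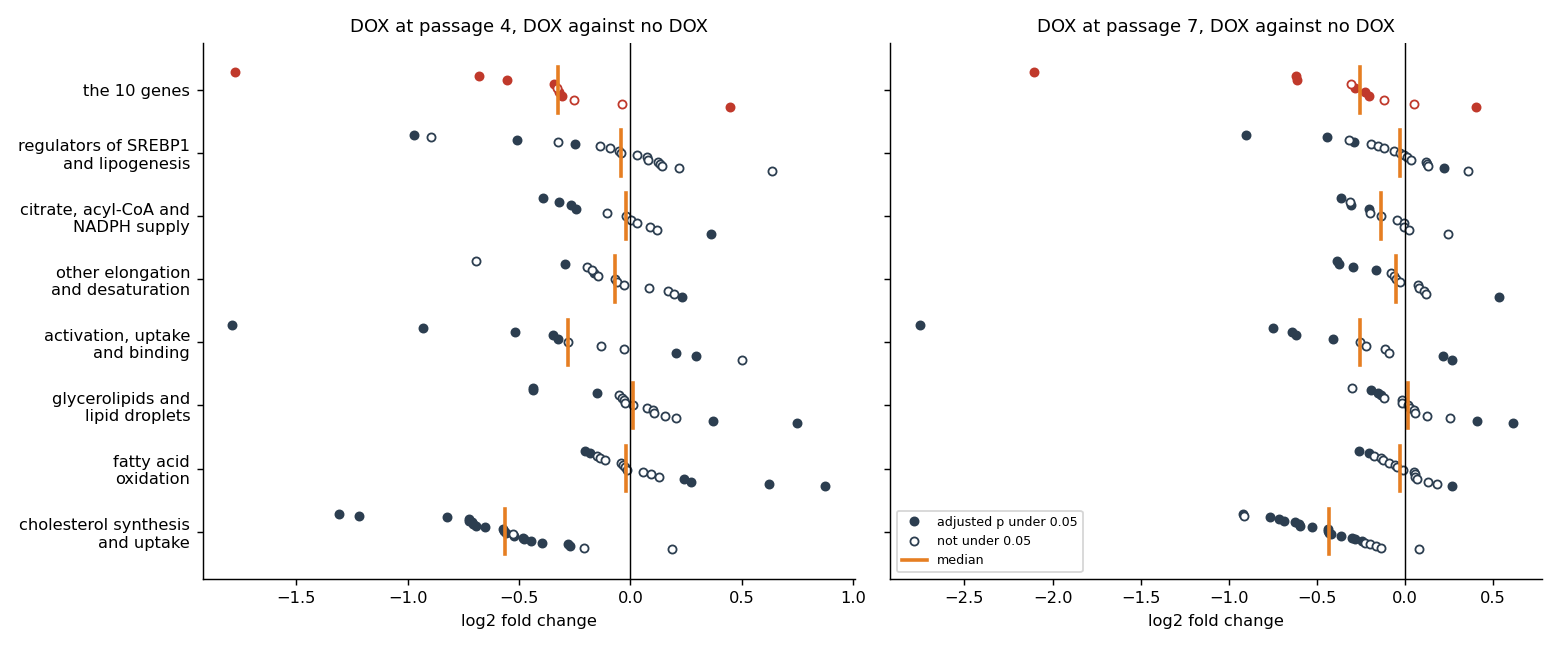
Log2 fold change with DOX (horizontal axes) of each tested gene, for the 10 genes (red) and 7 lists of related genes (dark), at passage 4 (left) and passage 7 (right); filled points had an edgeR adjusted p under 0.05 and the orange bar is the list's median. The cholesterol list lies mostly left of 0 (medians -0.56 and -0.43), the 10 genes lie mostly left of 0 (-0.32 and -0.26), and the oxidation and glycerolipid lists lie around 0.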

How the data were processed

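RNA of 16 libraries, 4 groups of 4, was measured by poly(A) RNA-seq with a strand-marking kit, per the labels' protocols. The authors aligned 2 reads of 75 bp per fragment with STAR 2.6.0c to GRCm38.p6, per the labels' protocols. The counting tool, annotation release and strand setting are not given in the sources used here. The deposited table of raw counts per gene holds whole numbers (9937504 to 17188295 per library), and all 55536 identifiers matched the GENCODE M21 annotation. Genes were kept by filterByExpr (15316 tested, 25677 without any count), TMM scaling was applied, and the 16 libraries were fitted with 1 mean per group (12 residual degrees of freedom) by the robust quasi-likelihood test of edgeR 4.0.16 in R 4.3.3. Benjamini-Hochberg adjustment ran over all tested genes, with a threshold of 0.05. FPKM is the TMM-scaled CPM per kilobase of exon union. Ratios used counts with 0.5 added and an exact permutation test (scipy 1.17.1 in Python 3.11.15).

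The authors also deposited a TPM table, and no source used here says how it was made. Over 13536 genes, 4 of its 16 columns ran closest to the like-named count column and 12 to a column of a different group (best r 1, next best at most 0.804). Pkd2 followed the count headers, so the results rest on the counts. Under the TPM headers Pkd2 went against the DOX labels in 2 groups. It was at 69.5 to 93.5 TPM with DOX at passage 4 and at 23.5 to 26.7 TPM without DOX at passage 7. The other groups had 72.3 to 98.0 TPM (passage 4 without DOX) and 25.8 to 31.7 TPM (passage 7 with DOX). TPM was used as headed only in 1 alternative, tested by limma 3.58.1 on log2(TPM + 1). The sequences and their windows come from RefSeq.

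The 10 genes, the lists and the tests were chosen with earlier results of these data known. Named genes are the 10, Pkd2, up to 4 genes of each list by the smaller adjusted p of the DOX comparisons, and the 2 genes most alike to each of the 10; genes named as overlapping, sharing sequence or too low to test were added after their values were seen. A few named genes are not reported here. Libraries of the same replicate number deviated together from their group means (r 0.18 to 0.37 over 24 pairs), and libraries of like number were taken as pairs. Libraries of the other number in the pair 1 and 2 or 3 and 4 did so equally (0.18 to 0.39), and those of the other pair deviated oppositely (-0.34 to -0.18). The 4 deviations of a group sum to 0, so the negative values follow from the positive ones. The positive values set replicates 1 and 2 apart from 3 and 4 and do not single out like numbers within them. The pairing by number was chosen after these values were seen and is not given by a label. Values with replicate number as a block are printed where they changed a call. Other alternatives were DESeq2 1.42.0, upper-quartile scaling, no filter, a filter of at least 10 counts in every library, the replicate pair as a term, each pair alone, and each library left out. The steps were tested on simulated counts for DOX at passage 4 with 200 changed genes among 15129: recovery was 30% at a 1.25-fold change, 60% at 1.5-fold, 92% at 2-fold and 94% at 4-fold, and 2 of 140 calls (1.43%) were false. The simulated libraries held no difference between replicate pairs, and the real comparison called more genes (1294 higher and 1393 lower). These rates may therefore not hold for the real data.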

Additional observations from a re-analysis of the deposited data

Results flagged for a closer look

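Single libraries stood apart from the other 3 of their group in 7 of 164 sets of values of the 10 genes and the named list genes, by a test that chance passes in about 1 of 20 sets. For Scd1, replicate 1 of passage 4 with DOX had 2.33 CPM, below the 3.47 to 3.70 CPM of its group, and replicate 2 of passage 7 without DOX had 22.3 CPM, above the 8.03 to 10.4 CPM of its group. Insig1 had 54.1 CPM in replicate 1 of passage 7 without DOX, against 65.1 to 65.7 CPM in the others. Cyb5r3 had 184 CPM in replicate 4 of passage 4 without DOX, against 205 to 208 CPM, and Fads3 had 68.4 CPM in replicate 2 of that group, against 76.2 to 77.2 CPM. Cyb5a had 82.6 CPM in replicate 4 of passage 7 without DOX, against 69.6 to 70.6 CPM, and Cpt1a had 57.2 CPM in replicate 2 of that group, against 52.3 to 53.1 CPM.

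The response to DOX differed between the passages for Sqle and Lss, genes of cholesterol synthesis. The difference of the log2 fold changes, passage 7 minus passage 4, was 0.46 for Sqle (edgeR adjusted p = 0.0060) and 0.41 for Lss (edgeR adjusted p = 0.047), so both fell less at passage 7.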

How the results depend on the processing

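No scaling moved the median log2 fold change of all tested genes by over 0.1. The TPM alternative is not part of the next totals. Of the values of the 10 genes and Pkd2 in the 5 comparisons, 394 of 440 kept direction and side of the threshold under the other alternatives that did not leave out 1 library each, 32 newly passed, 4 were lost and 10 changed sign. None of those 10 had passed the test. In replicates 1 and 2 alone the sign changed for Srebf1 with DOX at passage 4 (0.0081), Acaca with DOX at passage 7 (-0.023), the difference of responses of Scd2 (-0.087) and Fads1 (-0.046), and passage without DOX of Acly (0.018) and Acaca (0.031). In replicates 3 and 4 alone it changed for the difference of Fads2 (-0.012), passage with DOX of Acly (-0.015), and passage without DOX of Fasn (-0.088) and Scd1 (-0.15). The cause was not tested.

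In counts of the 10 genes, 0 were higher with DOX at passage 4 and passage 7 in replicates 3 and 4 alone. There 1754 and 2205 of 15449 tested genes were higher. With the TPM columns as headed 0 were higher or lower (unadjusted, 2 lower at passage 4 and 1 at passage 7). Since 12 of the 16 TPM columns ran closest to the count column of a different group, the TPM counts cannot show a dependence on processing. For passage with DOX, 6 were higher with the pair as a term, with the replicate block and in replicates 1 and 2 alone, 5 with upper-quartile scaling and in replicates 3 and 4 alone, and 0 were lower in replicates 1 and 2 alone. All tested genes also moved, from 2806 of 15316 higher in the main fit to 3643 with the pair and 3546 with the block. In replicates 1 and 2 alone 2875 of 15357 were higher and 2494 lower. Upper-quartile scaling had 2912 of 15316 higher, and replicates 3 and 4 alone 3072 of 15449. For passage without DOX, 5 were higher in replicates 1 and 2 alone, and 1 was lower with the pair as a term, with the block and in replicates 3 and 4 alone. Among all tested genes, 2542 of 15357 were higher in replicates 1 and 2 alone. Lower were 2774 of 15316 with the pair, 2660 with the block and 2225 of 15449 in replicates 3 and 4 alone. With 1 library left out, the genes called with DOX numbered 1 higher and 6 to 7 lower at passage 4, and 0 to 1 higher and 5 to 6 lower at passage 7. For passage they numbered 3 to 5 higher and 0 to 1 lower with DOX, and 2 to 4 higher and 0 to 1 lower without DOX. The block and the library left out changed no count for the difference of responses, and the block changed no call of a named gene beyond those given with the results.

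The ratio differences were weaker with the replicate block only in that 4 pairs cannot pass (-1.41 and -1.68 for Scd1 to Scd2, 0.37 and 0.33 for Fads1 to Fads2, exact p = 0.125). Leaving out 1 library (4 against 3 cannot go below an exact p of 0.0571) gave -1.57 to -1.25 and -1.81 to -1.44 for Scd1 to Scd2, and 0.33 to 0.43 and 0.30 to 0.39 for Fads1 to Fads2. In replicates 1 and 2 alone and 3 and 4 alone, Fads1 to Fads2 at passage 4 gave 0.50 and 0.24.

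Leaving out 1 library changed the sign of values that had not passed: Acaca with DOX at passage 7 (-0.022 to 0.12), the differences of responses of Acss2 (-0.11 to 0.065), Scd1 (-0.49 to 0.11), Scd2 (-0.076 to 0.23), Fads1 (-0.030 to 0.084) and Fads2 (-0.0011 to 0.14), and passage without DOX of Acly (-0.056 to 0.0022), Fasn (-0.0065 to 0.11) and Scd1 (-0.28 to 0.32). Gpat4 with DOX at passage 4 ran over -0.0029 to 0.023. Of 224 list counts, 30 moved by over 1.5 times. Scd1 had 30 to 59 counts per library with DOX at passage 4. Its SE for DOX at that passage (0.29) was the largest of the 10 genes, and the reason was not tested.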
